A study of Mus musculus with 12 samples.

Results

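The cytosolic ribosomal protein genes were followed in RNA-seq of mouse lumbar spinal cord at 30 days of age, in a transgenic model of Charcot-Marie-Tooth disease type 2A, an inherited axonal neuropathy caused by mutations of mitofusin 2. Members were the protein-coding mouse genes whose symbol is Rpl or Rps followed by a digit, or Rplp0, Rplp1 or Rplp2, without pseudogenes, S6 kinases and Rpsa. The rule took 85 of the 49548 genes in the count tables, of which 32 encode small subunit proteins, 49 large subunit proteins and 3 the ribosomal stalk (Rplp0, Rplp1, Rplp2). The remaining gene, Rps19bp1, carries a matching symbol but encodes a binding partner of Rps19 and no subunit.

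The 12 libraries were 8 from MFN2 mice and 4 from WT mice, none treated. MFN2 mice were hemizygous for Tg(Eno2-MFN2*R94Q)L51Ugfm/J on a B6;D2 background, a transgene that expresses human MFN2 with the R94Q substitution under the rat Eno2 promoter, mainly in neurons; the labels give the WT mice as C57BL/6 and the study's methods call them littermates, so the transgene and any difference in strain background cannot be told apart. MFN2 libraries are numbered 41 to 43 and 72 to 76, WT libraries 44 to 47, with no WT library in the second run of numbers, so that for libraries 72 to 76 genotype and run cannot be told apart. Nothing in the labels says how each animal was bred or pooled, and p-values measure the spread between these libraries. Total counts ran from 19359454 (library 73) to 26738930 (library 41), of which the 85 members took 130574 to 194540. Levels are given as CPM, counts scaled to library size and by the TMM method, and as RPKM, the same per kilobase of exon, where genes are compared with each other.

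Library 43 stood apart from the others in tissue markers. Its summed level of 8 genes of forebrain neurons was 4674 CPM, with Camk2a the most abundant, against 108 to 207 CPM in the other 11 libraries. Its 4 lumbar Hox genes summed to 13.1 CPM, against 52.0 to 102 CPM elsewhere, and its 6 motor neuron markers to 35.4 CPM, against 153 to 369 CPM. Library 43 was also lowest in the sum of 6 neuron markers, at 4043 CPM against 5353 to 6766 CPM elsewhere. Nefl, which leads that sum, ran from 732 to 3826 CPM over the libraries, so the sum does not stand for each marker. In libraries 41 to 43 against WT, 4 of the 6 estimates were below 0 and 2 above. Markers of neurons (Nefl) and astrocytes (Slc1a2), each led by the gene in parentheses, were detected in every library. No marker of either was at 0 in all libraries. Library 73 stood apart in others, with 4 red blood cell genes at 306 CPM against 64.5 to 178 CPM in the other 11. Endogenous Mfn2 measured 211, 221, 222, 212, 189, 203, 199 and 189.6 CPM in the MFN2 libraries in order of number and 194, 221, 228 and 208 CPM in WT, overlapping ranges. Mouse gene tables hold no row for the human transgene, so Mfn2 does not check the genotype labels.

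Each cytosolic ribosome joins a small subunit, which reads the mRNA, with a large subunit, which forms peptide bonds, around a core of ribosomal RNA. Most subunit proteins are present once per ribosome, and their genes are transcribed at high and balanced rates in nearly every cell. Their mRNAs belong to the 5' terminal oligopyrimidine (TOP) class: transcription begins at a C followed by a run of pyrimidines, through which mTORC1 and Larp1 adjust translation. Neurons also carry ribosomes and ribosomal protein mRNAs into axons and dendrites.

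Some annotated starts of members carry this feature and most do not, as counted after the sequences, and the sequences below were chosen to show it for genes that fell in libraries 72 to 76 (Rps18, Rps10, Rpl38, Rps27), for genes that did not pass the test there (Rps6, Rplp2) and its absence in a pair that fell (Rplp0, Rps16). Each window holds 15 bases on either side of the RefSeq start (GRCm38.p6), 5' to 3' on the gene's strand, and capitals mark a run of at least 5 C or T bases that opens with a C at the start itself.
Rps18, chr17:33955651-33955680, minus strand: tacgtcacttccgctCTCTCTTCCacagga
Rps10, chr17:27635230-27635259, minus strand: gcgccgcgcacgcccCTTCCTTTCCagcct
Rpl38, chr11:114668565-114668594, plus strand: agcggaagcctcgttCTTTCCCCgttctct
Rps27, chr3:90213634-90213663, minus strand: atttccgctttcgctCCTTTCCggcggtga
Rps6, chr4:86857353-86857382, minus strand: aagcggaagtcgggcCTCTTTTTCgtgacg
Rplp2, chr7:141447636-141447665, plus strand: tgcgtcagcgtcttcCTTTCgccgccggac
Rplp0, chr5:115559452-115559481, plus strand: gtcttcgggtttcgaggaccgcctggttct
Rps16, chr7:28350674-28350703, plus strand: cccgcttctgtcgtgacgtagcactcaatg
RefSeq start windows were matched by symbol for 65 of the 85 members, and not for 20, among them Rpl17, Rpl21, Rpl23a, Rpl29, Rpl3, Rpl30, Rpl32, Rpl36, Rpl7, Rpl8, Rplp1, Rps14, Rps20, Rps27a and Rps29. Searched on the gene's strand only, such a run began exactly at the start in 14 of 65 members (21.5%), in 453 of 17427 other protein-coding genes (2.6%) and in 0 of 69 mitochondrial ribosomal protein genes. With the opening C allowed within 5 bases of the start, the shares were 46.2%, 21.4% and 24.6%. Among members that fell in libraries 72 to 76 the exact run was found in 7 of 32. It was found in 7 of 33 other members, which include the 5 members not tested for change, with Rps27rt among the 7. A match describes these letters and is not a mapped start, and its absence says only that they are not in the window.

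Per length of exon, a stalk gene led the order of levels in WT cord. Rplp1, an acidic stalk protein that helps recruit translation factors, stood alone at 508 ± 20.96 RPKM (SD, n = 4). It was followed by Rpl36 at 221 ± 23.5, Rps23, a protein of the decoding centre, at 164 ± 14.1, Rpl8 at 148 ± 12.3 and Rps15 at 141 ± 11.5 RPKM, and only Rpl8 and Rps15 among these neighbours differed by less than the SD of either. With the longest transcript as the length, Rpl26 (268 RPKM) and Rps21 (227 RPKM) came next after Rplp1 (508 RPKM), ahead of Rps23 (222 RPKM) and Rpl36 (221 RPKM). The lowest tested members were Rpl7l1, Rps27l and Rpl13a at 8.30, 6.05 and 2.22 RPKM. All 85 members together took 0.719 ± 0.0143% of the counts in WT libraries (SD, n = 4).

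**Figure D1:**
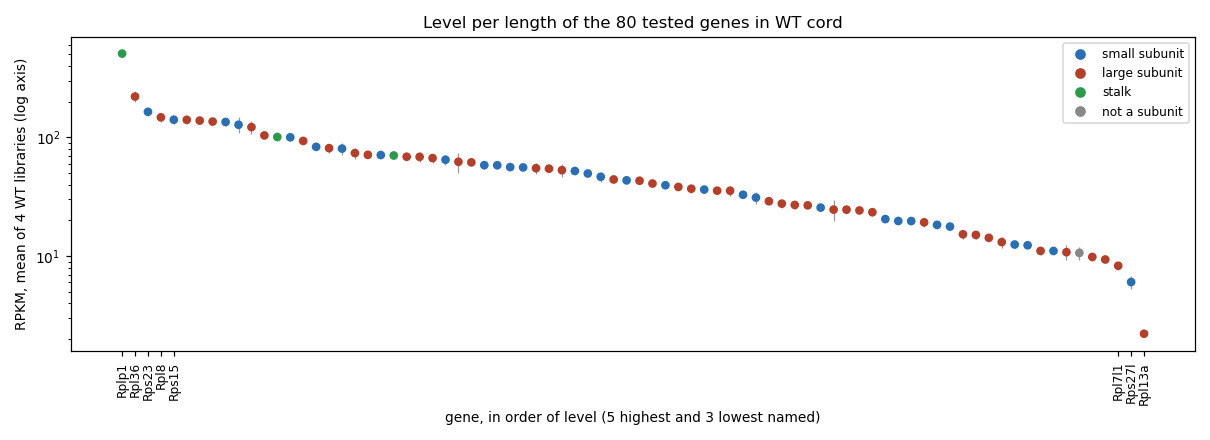
Mean RPKM over the union of exons in the 4 WT libraries (log axis, bars are SD) for the 80 tested genes, in order of level and coloured by subunit. Rplp1 stands above all others at 508 RPKM, and Rpl13a is last at 2.22 RPKM.

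Members share sequence with other genes far more than mitochondrial ribosomal protein genes do. Of windows of 75 bases, the read length, a median of 42.6% in the principal transcript of a member recurred exactly in another annotated gene, against 0.353% in 78 mitochondrial ribosomal protein genes. Either strand was searched, and other genes that overlap at the same locus were included. Rpl35, at 89.2%, overlaps antisense genes over 68.3% of its transcript. How reads that fit several genes were counted is not given in the sources used here. Rps27 shared the most, 98.5% of windows, and Rps3, Rps19bp1, Rpl3l and Rpl39l were among those that shared none. Rpl13a, a large subunit protein that also acts in inflammatory translation control, overlaps the gene model Gm45713 over 59.3% of its transcript, and Rpl24 overlaps Gm28037 over 71.5%. Both of those models were listed at 0 counts in all 12 libraries. Rpl13a and Rpl24 values are uncertain for this reason, and the part of sharing in the low levels was not tested.

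Paralogs were below their better-known partners in each pair measured. Rpl24 and 4 paralogs or retrocopies did not pass the filter of more than 1 CPM in at least 3 libraries: Rpl10l and Rpl39l, known from testis, Rpl3l, known from striated muscle, and Rps27rt. Rpl10l was at 0 in all WT libraries and no higher than 0.0438 CPM in any MFN2 library. Rpl3l averaged 0.647 ± 0.163 CPM in WT and reached its highest value, 1.40 CPM, in library 73. The summed level of 4 skeletal muscle genes (Acta1, Ckm, Myh4, Mylpf) was 173 CPM in library 73 and 186 CPM in WT library 47, against 1.69 to 31.0 CPM in the other 10, and its part in the Rpl3l value was not tested. Per length, in WT, Rpl3 measured 93.4 RPKM against 0.394 for Rpl3l, Rpl7 68.7 against 8.30 for Rpl7l1, and Rpl10 40.9 RPKM against 0 for Rpl10l. Rpl22 measured 35.6 RPKM against 9.84 for Rpl22l1, Rpl36a 27.7 against 19.3 for Rpl36al, and Rps27 46.6 against 6.05 for Rps27l, a p53-responsive paralog. Rpl39 measured 10.8 RPKM against 0.0393 for Rpl39l, and the X-linked Rps4x 52.1 RPKM.

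Members varied little between WT animals. The median coefficient of variation over the 4 WT libraries was 6.65% for the 80 tested members. For 6638 other genes at 19.4 to 200.9 CPM, a range that leaves out the lowest and highest members, the median was 6.94%. Among members the coefficient was lowest in Rps26 (1.23%) and Rpl14 (1.35%) and highest in Rpl34 (20.2%) and Rpl29 (19.1%).

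The share of counts that fell on members separated the runs of library numbers and not the genotypes. Members took 0.728, 0.702 and 0.723% of counts in MFN2 libraries 41 to 43, 0.707, 0.715, 0.740 and 0.713% in WT, and 0.666, 0.689, 0.673, 0.650 and 0.664% in MFN2 libraries 72 to 76. All 5 libraries of the second run lay below all 7 of the first, while MFN2 and WT overlapped within the first run. The summed counts of small subunit genes over those of large subunit genes (stalk left out) gave the same arrangement, with ratios of 0.698, 0.686 and 0.712 in libraries 41 to 43, 0.679, 0.681, 0.692 and 0.698 in WT and 0.626, 0.644, 0.620, 0.628 and 0.635 in libraries 72 to 76. In bulk tissue, fewer cells of a type and less RNA per cell cannot be told apart.

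**Figure D2:**
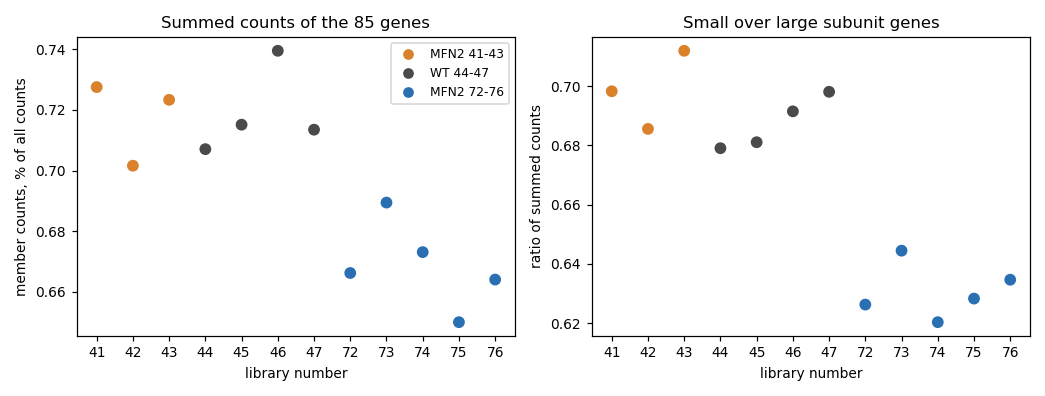
Left, counts of the 85 members as a percentage of all counts in each library; right, summed counts of small subunit genes over those of large subunit genes (axes do not start at 0; 1 point per library). Libraries 72 to 76 lie at 0.650 to 0.689% and at ratios of 0.620 to 0.644, below every library numbered 41 to 47.

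The comparison of all 8 MFN2 with all 4 WT libraries asked whether the transgene was accompanied by a change of ribosomal protein mRNA. No member passed an FDR of 0.05 (edgeR quasi-likelihood test, Benjamini-Hochberg over 15942 genes, used for every FDR here), where the background was 0% of genes, limma-voom called 0 members beside 0% of genes, and DESeq2 called 0 members beside 1.25% of genes. At an unadjusted p under 0.05, 24 of 80 members were lower and 0 higher, beside 7.57% and 7.4% of all genes. The median log2 fold change of members was -0.12, that of all genes 0.0038. The lowest estimates belonged to the small subunit genes Rps16, -0.43 ± 0.182 (SE; FDR 0.308), Rps18, -0.38 ± 0.193 (SE; FDR 0.358), and Rps3a1, -0.38 ± 0.140 (SE; FDR 0.278), and the highest to Rps19bp1, 0.15 ± 0.0917 (SE; FDR 0.443), Rplp1, 0.12 ± 0.0627 (SE; FDR 0.382), and Rpl7l1, 0.12 ± 0.0613 (SE; FDR 0.378). With the run of library numbers fitted as a covariate, Rps18 turned to 0.015. That covariate also moved the median of members, as given with the other fits below. Rps19bp1 ran from 0.090 to 0.22 in the main fit with single libraries left out. Without library 43, 1 member was called, beside 0.119% of all genes: Rpl38, at -0.39 (its name was chosen after its value was seen).

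In 2 members every MFN2 library was below every WT library, beside 1.07% of all genes, and in 0 above, beside 0.979%. Rpl11, which with Rpl5 and the 5S RNA can bind Mdm2, measured 69.4, 66.3 and 67.8 CPM in MFN2 libraries 41 to 43, 69.6, 73.1, 76.2 and 70.00 CPM in the WT libraries and 54.9, 54.1, 59.6, 59.3 and 58.3 CPM in MFN2 libraries 72 to 76. Rpl14 measured 98.9, 97.6 and 85.6 CPM in MFN2 libraries 41 to 43, 102, 104, 100.3 and 101 CPM in the WT libraries and 98.4, 93.2, 98.8, 90.2 and 99.3 CPM in MFN2 libraries 72 to 76. In Rpl11 library 41 lay just below the lowest WT library and the second run was lowest, whereas in Rpl14 the sets of MFN2 libraries overlapped and library 43 was lowest. Log2 fold changes over all 12 libraries were -0.24 ± 0.0757 (SE; FDR 0.27) for Rpl11 and -0.095 ± 0.0542 (SE; FDR 0.4) for Rpl14.

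Within the first run of library numbers, 3 MFN2 against 4 WT libraries, no difference of members was detected. In simulated data this comparison recovered 80 of 200 genes changed by 1 on the log2 scale. That of libraries 72 to 76 with WT recovered 169. A difference of members could therefore be missed here. Of 80 members 0 were called, beside 0.00627% of all genes, 0 had an unadjusted p under 0.05, beside 7.2% of all genes, and 0 were called by DESeq2, beside 0.0251%, or by limma-voom, beside 0%. The median log2 fold change was -0.015, with 30 members above and 50 below 0, beside 49.7% and 50.3% of all genes. MFN2 libraries were all above WT in 1 member, Rps7, beside 4.53% of all genes, and all below in Rpl11 and Rpl14, beside 4.28%. The extremes were Rps7, 0.25 ± 0.109 (SE; FDR 0.635), Rpl37, 0.22 ± 0.106 (SE; FDR 0.635), and Rps27, 0.14 ± 0.0986 (SE; FDR 0.662), on the higher side, and Rps27l, -0.33 ± 0.195 (SE; FDR 0.638), Rpl13a, -0.27 ± 0.227 (SE; FDR 0.7), and Rps13, -0.15 ± 0.117 (SE; FDR 0.688), on the lower. Library 43 is 1 of the 3 MFN2 libraries here; without it the count stayed at 0, the median was -0.051, Rpl13a was at -0.58 and Rps13 at -0.24. Without library 42 the median was 0.0072, Rpl13a was at -0.14 and Rps13 at -0.034, and without library 41 Rpl13a was at -0.13 and Rps27l at -0.52. Rps27 ran from 0.087 to 0.19 with single libraries left out.

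MFN2 libraries 72 to 76 against the same 4 WT libraries gave many differences. Of 80 members 42 fell and 1 rose at an FDR of 0.05, beside 12.2% of all genes lower and 11.4% higher, and in 40 members all 5 libraries lay below all 4 WT libraries, beside 10.2% of all genes. Small subunit genes fell in 21 of 31 cases, with a median of -0.37 among those 21 (from -0.72 to -0.15), and large subunit and stalk genes in 21 of 48, with a median of -0.33 (from -0.57 to -0.17). Over all tested genes, called or not, the medians were -0.28 for the small subunit and -0.14 for the large subunit with the stalk. Whether the subunits differed was not tested. Over all 80 members the median log2 fold change was -0.19, over all genes 0.0045. Genotype and run of library numbers cannot be told apart in these values, which share the WT libraries with the within-run comparison.

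Among small subunit genes Rps16, a protein of the head of the subunit, fell most. Rps16 (ENSMUSG00000037563, chr7:28350652-28353155) measured 53.5, 44.5 and 62.5 CPM in MFN2 libraries 41 to 43, 58.9, 50.5, 56.3 and 54.6 CPM in the WT libraries and 33.4, 37.3, 31.2, 29.5 and 35.4 CPM in MFN2 libraries 72 to 76. The second run lay below both other sets with no overlap, and libraries 41 to 43 straddled the WT range. Its log2 fold change was -0.72 ± 0.0718 (SE; FDR 0.000129) in libraries 72 to 76 and -0.026 ± 0.124 (SE; FDR 0.948) in libraries 41 to 43.

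Rps18 (ENSMUSG00000008668, chr17:33951999-33956001), which contacts the large subunit, measured 47.9, 42.7 and 56.2 CPM in MFN2 libraries 41 to 43, 45.2, 48.2, 49.9 and 50.2 CPM in the WT libraries and 35.5, 28.4, 34.8, 25.8 and 25.99 CPM in MFN2 libraries 72 to 76. Rps10 (ENSMUSG00000052146, chr17:27630418-27636669), mutated in Diamond-Blackfan anaemia in humans, measured 43.3, 32.3 and 43.2 CPM in MFN2 libraries 41 to 43, 41.3, 39.4, 41.4 and 41.9 CPM in the WT libraries and 25.7, 30.9, 27.9, 26.5 and 24.6 CPM in MFN2 libraries 72 to 76. In both genes every library of the second run was below every other library, the lowest being 75 for Rps18 and 76 for Rps10. Log2 fold changes against WT were -0.68 ± 0.101 (SE; FDR 0.00106) and -0.59 ± 0.0664 (SE; FDR 0.000232), and within the first run 0.031 and -0.035. Rps10 shares 53.6% of its transcript with a readthrough model, RPS10-NUDT3, not analysed here.

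Rps12 measured 67.2, 58.3 and 65.6 CPM in MFN2 libraries 41 to 43, 62.2, 70.8, 67.7 and 65.9 CPM in the WT libraries and 44.05, 50.3, 46.7, 43.3 and 49.4 CPM in MFN2 libraries 72 to 76. Rps3, which lines the mRNA entry channel, measured 183, 163 and 162 CPM in MFN2 libraries 41 to 43, 165, 175, 189 and 179.7 CPM in the WT libraries and 125, 135, 128, 121 and 142 CPM in MFN2 libraries 72 to 76. Again the second run was lowest and the first-run genotypes overlapped, with log2 fold changes of -0.51 ± 0.0581 (SE; FDR 0.000249) and -0.44 ± 0.0565 (SE; FDR 0.000462) in libraries 72 to 76. No 75-base window of Rps3 recurs in another gene.

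On the large subunit, Rpl30, which also binds selenocysteine insertion elements, measured 41.9, 36.3 and 48.3 CPM in MFN2 libraries 41 to 43, 49.9, 42.6, 45.3 and 44.4 CPM in the WT libraries and 28.01, 29.3, 32.3, 30.5 and 33.4 CPM in MFN2 libraries 72 to 76, a log2 fold change of -0.57 ± 0.0662 (SE; FDR 0.000273) in libraries 72 to 76. Rpl38, known for its part in translating Hox mRNAs, measured 67.2, 59.9 and 78.8 CPM in MFN2 libraries 41 to 43, 73.9, 70.5, 77.5 and 83.02 CPM in the WT libraries and 54.2, 55.00, 55.98, 54.8 and 59.7 CPM in MFN2 libraries 72 to 76. In Rpl38 the lowest first-run library, 42, was just above the highest of the second run, and the change was -0.44 ± 0.0545 (SE; FDR 0.000383). Rpl41, the shortest ribosomal protein, changed by -0.52 ± 0.0670 (SE; FDR 0.000462) and Rpl31, near the exit of the peptide tunnel, by -0.47 ± 0.0600 (SE; FDR 0.000489). In the p53-linked pair, Rpl11 fell, -0.33 ± 0.0501 (SE; FDR 0.00102), and Rpl5 gave 0.064 ± 0.0568 (SE; FDR 0.445), from 0.027 to 0.091 with single libraries left out. Rpl13a fell by 0.411 on the log2 scale (FDR 0.0342), from 4.69 CPM in WT, and lost its call in 7 of the other fits, among them those without library 45, 46, 72, 73 or 75.

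Of the 3 stalk genes 1 was called. Rplp0, which anchors the stalk, measured 180.0, 149 and 159.8 CPM in MFN2 libraries 41 to 43, 155, 171, 175 and 169 CPM in the WT libraries and 122, 134, 118, 115 and 90.8 CPM in MFN2 libraries 72 to 76. Every second-run library was below the others and library 76 was lowest, a log2 fold change of -0.52 ± 0.0914 (SE; FDR 0.00259). The fall was smaller with the 4 pseudogenes that share sequence with Rplp0 added. Means were then 138 CPM in libraries 72 to 76 and 169 CPM in WT, against 116 and 167 CPM for Rplp0 alone. Rplp1 measured 258, 249 and 308 CPM in MFN2 libraries 41 to 43, 239, 256, 264 and 255 CPM in the WT libraries and 276, 287, 265, 272 and 284 CPM in MFN2 libraries 72 to 76. All 5 second-run values of Rplp1 exceeded all 4 WT values, library 74 by a narrow margin, beside 9.43% of all genes, and its estimate of 0.13 ± 0.0457 (SE; FDR 0.0568) missed the threshold. Rplp2 gave 0.0094 ± 0.0455 (SE; FDR 0.906).

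Other abundant or well-studied members did not pass the test. Rpl4 measured 269.6, 265 and 254 CPM in MFN2 libraries 41 to 43, 277, 273, 275 and 266 CPM in the WT libraries and 273, 279, 276, 268 and 277 CPM in MFN2 libraries 72 to 76, a difference of 0.013 ± 0.0401 (SE; FDR 0.855) in libraries 72 to 76. Rps23 gave -0.058 ± 0.0561 (SE; FDR 0.486), Rpl3 -0.021 ± 0.113 (SE; FDR 0.918), Rps4x 0.036 ± 0.0466 (SE; FDR 0.617) and Rps19, whose loss causes Diamond-Blackfan anaemia, -0.051 ± 0.0508 (SE; FDR 0.504). The coefficient of variation of Rpl3 in libraries 72 to 76 was 16.6%, against a median of 4.66% for members. The 7 pseudogenes that share sequence with Rpl3 summed to 35.2 CPM in library 75 and 19.6 CPM in library 76, against 3.10 to 4.11 CPM in WT. With single libraries left out Rps19 ran from -0.080 to -0.030, and its sign turned with scaling by library size only. Rps6, the substrate of S6 kinase, gave -0.12 ± 0.0547 (SE; FDR 0.127). The member that rose was Rpl23a, a docking site for factors at the tunnel exit, which measured 104, 98.1 and 116 CPM in MFN2 libraries 41 to 43, 126, 112, 116 and 116 CPM in the WT libraries and 132, 128, 126, 135 and 131 CPM in MFN2 libraries 72 to 76. WT library 44 overlapped the second run, the difference was 0.16 ± 0.0488 (SE; FDR 0.0365), and the call was lost without filtering and without any one of libraries 45, 46, 47, 72, 74 and 75. The other members of highest estimate were Rpl34, 0.17 ± 0.120 (SE; FDR 0.334), and Rps19bp1, 0.16 ± 0.0871 (SE; FDR 0.205). Without WT library 44 they were at 0.043 and 0.097, and Rpl34 was at 0.26 without WT library 45.

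**Figure D3:**
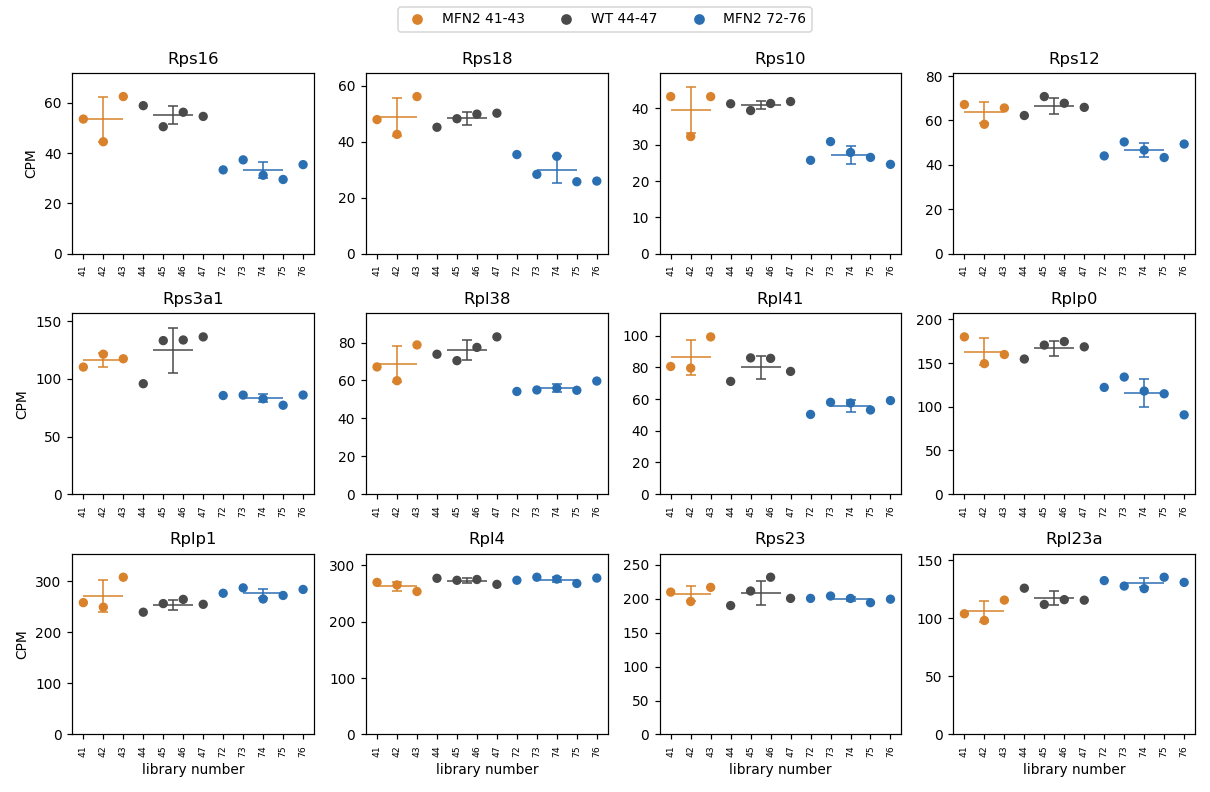
CPM of 12 members in each library (1 point per library; dash and bar are the mean and SD of a set; axes start at 0). In Rps16, Rps18, Rps10, Rps12, Rps3a1, Rpl41 and Rplp0 libraries 72 to 76 lie below the other 7 libraries, and in Rpl4, Rps23 and Rplp1 they do not.

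Members of the paralog pairs were read in the same comparison. Rpl7 fell, -0.21 ± 0.0450 (SE; FDR 0.00591), and Rpl7l1 gave 0.13 ± 0.0639 (SE; FDR 0.161). Rpl36a fell, -0.31 ± 0.0578 (SE; FDR 0.00313), beside 0.15 ± 0.0709 (SE; FDR 0.149) for Rpl36al, and Rps27 fell, -0.28 ± 0.0682 (SE; FDR 0.0121), beside -0.022 ± 0.130 (SE; FDR 0.925) for Rps27l. Rpl10 fell, -0.33 ± 0.0479 (SE; FDR 0.000828). Rpl22 and Rpl22l1 gave -0.11 ± 0.0486 (SE; FDR 0.11) and -0.031 ± 0.0765 (SE; FDR 0.809), and Rpl39 -0.07 ± 0.104 (SE; FDR 0.669). Differences within a pair were not tested.

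The direct comparison of MFN2 libraries 72 to 76 with 41 to 43 holds the genotype fixed. It called 13 of 80 members lower and 0 higher, beside 1.13% and 0.947% of all genes, and in 28 members all 5 libraries lay below all 3, beside 8.59%, and in 3 above (Rpl23a, Rpl27, Rpl36al), beside 9.62%. The 13 were 10 of 31 small subunit genes (Rps3, Rps3a1, Rps7, Rps12, Rps14, Rps15, Rps16, Rps18, Rps20 and Rps27) and 3 of 48 large subunit or stalk genes (Rpl37, Rpl37a and Rpl41). The median log2 fold change of members was -0.16, and that of all genes -0.017. Without library 43 the count was 31 members, beside 14.8% of all genes, and without any single library of the second run it was 2 to 5, beside 0.163 to 0.521% of all genes. Without library 41 it was 5, beside 0.458%, and with all libraries 2.08% of all genes were called in either direction.

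Rps7, which like Rpl11 can bind Mdm2, had the lowest FDR. It measured 202, 189 and 181 CPM in MFN2 libraries 41 to 43, 141, 178, 180.2 and 149.6 CPM in the WT libraries and 119, 128, 118, 129.9 and 132 CPM in MFN2 libraries 72 to 76. Libraries 41 to 43 were the highest and 72 to 76 the lowest, with WT between them, and the difference between the runs was -0.63 ± 0.0644 (SE; FDR 0.00838). Rpl37 measured 111, 109.6 and 98.95 CPM in MFN2 libraries 41 to 43, 82.6, 103, 100.3 and 84.5 CPM in the WT libraries and 75.1, 69.8, 78.02, 76.8 and 73.1 CPM in MFN2 libraries 72 to 76, where libraries 41 to 43 overlapped WT and the second run was lowest, a difference between the runs of -0.54 ± 0.0641 (SE; FDR 0.0115). Rps14, whose loss underlies the anaemia of the 5q- syndrome, gave -0.72 ± 0.0890 (SE; FDR 0.0115), Rps15 -0.52 ± 0.0705 (SE; FDR 0.0167), Rps3a1 -0.50 ± 0.0693 (SE; FDR 0.0181) and Rps20 -0.43 ± 0.0670 (SE; FDR 0.025). Rpl41 gave -0.66 ± 0.101 (SE; FDR 0.0241), Rps12 -0.47 ± 0.0802 (SE; FDR 0.0323), Rps16 -0.71 ± 0.126 (SE; FDR 0.0362) and Rps18 -0.72 ± 0.149 (SE; FDR 0.0497). The highest estimates, none of which passed, were Rps27l at 0.29 (0.51 without library 41 and 0.18 without library 42), Rpl23a at 0.28 and Rpl36al at 0.23.

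**Figure D4:**
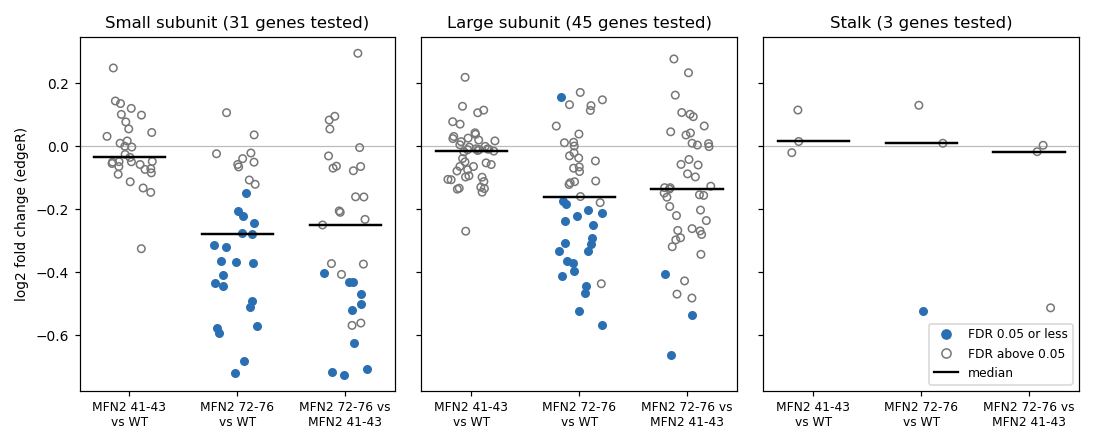
Log2 fold change of each tested subunit gene in the within-run comparison, in libraries 72 to 76 against WT and between the runs within MFN2 mice, by part of the ribosome (1 point per gene; filled points at an FDR of 0.05 or less; lines are medians). Within the first run no point is filled, whereas 21 of 31 small subunit genes are filled and lower in libraries 72 to 76 against WT.

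The 42 members that fell in libraries 72 to 76 were set beside the other 38 tested members by gene properties, with no test. Their median transcript length was 845 bases against 926, their median GC content 52.7% against 50.8%, their median share of recurring windows 35.9% against 46.9%, and their median WT level 75.4 against 84.8 CPM. The 3430 shortest of the other genes (255 to 2394 bases) had median deviations from their own mean log2 level of -0.078 to 0.097 in the first run and -0.047 to -0.011 in the second, and members of -0.039 to 0.16 and -0.15 to -0.060. The 698 other genes of up to 1200 bases gave -0.084 to 0.15 in the first run and -0.060 to 0.0046 in the second, with overlap. The 3428 other genes of highest GC content (54.6 to 73.5%) gave -0.021 to 0.089 and -0.079 to -0.042, with every second-run library below every first-run library, as in the members. The 3428 other genes of 49.8 to 54.6% GC gave -0.034 to 0.036 and -0.027 to -0.012, with overlap. Both median GC contents of the members lie in that class. The part of length and GC content in the result was not tested.

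Pseudogenes of these genes were higher in the same libraries. The 561 pseudogenes that share a 75-base window with a member (chosen after values were seen) summed to 108, 104 and 108 CPM in libraries 41 to 43, 109, 108, 105 and 111 CPM in WT, and 161, 190.0, 167, 188 and 187 CPM in libraries 72 to 76. Their mean was 70.4 CPM higher in the second run than in WT, while that of the summed members was 833.5 CPM lower. The largest single case was Rplp0, whose 4 pseudogenes summed to 1.46 to 2.25 CPM in WT, 0.990 to 2.57 CPM in libraries 41 to 43 and 17.5 to 34.0 CPM in 72 to 76. With them added, Rplp0 was still lower in the second run, 138 ± 10.7 against 169 ± 8.81 CPM (SD, n = 5 and 4). Of 42 members that fell, 38 had all 5 second-run libraries below all 4 WT libraries on their own counts, beside 10.2% of all genes. Of the 40 that have such pseudogenes 35 did so with these added. The 42 were picked by a test on these same libraries, so high counts here follow from the choice. The counts also cover different sets, 42 and 40 members. In 0 of the 40 did the pseudogenes gain more CPM than the member lost. The pseudogenes gained CPM in 33 of the 40, and in 6 by more than 10% of what the member lost. Reads left uncounted for several matches were not measured, and the part of shared reads in the result was not tested.

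**Figure D5:**
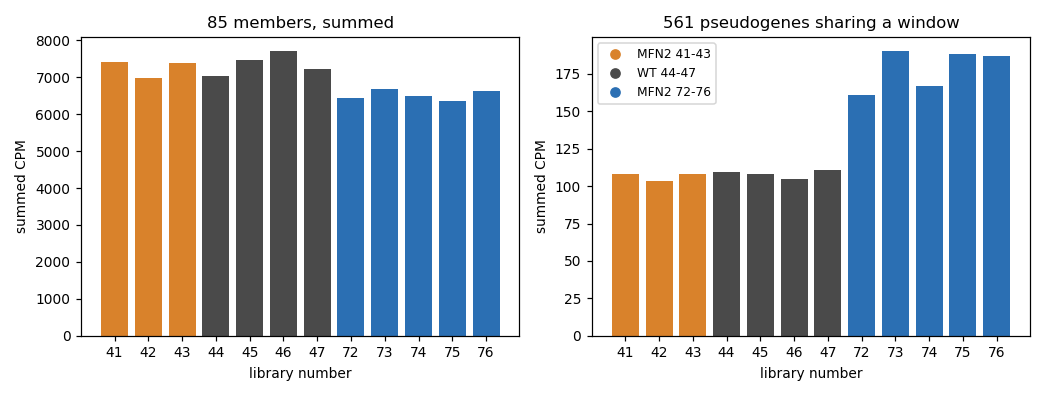
Summed CPM of the 85 members (left) and of the 561 pseudogenes that share a 75-base window with a member (right) in each library; bars start at 0. In libraries 72 to 76 the members sum to 6349 to 6679 CPM, below the 6971 to 7701 CPM of the other libraries, and the pseudogenes to 161 to 190.0 CPM, above 104 to 111 CPM.

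Related gene groups were counted in libraries 72 to 76 against WT in the same way, where 11.4% of all genes were higher and 12.2% lower. Of 65 ribosome biogenesis genes 17 rose (26.2%), among them Nop58 of the box C/D snoRNP (0.38 ± 0.0546, FDR 0.000781) and Mybbp1a (0.30 ± 0.0481, FDR 0.00133), and 2 fell (3.08%), the methyltransferase gene Fbl (-0.41 ± 0.0894, FDR 0.00646) and Eif6 (-0.24 ± 0.0815, FDR 0.0490). Of 15 other TOP mRNAs 3 fell and 2 rose (13.3%), with the elongation factor gene Eef2 at -0.35 ± 0.0479 (FDR 0.000631) and Nap1l1 at 0.26 ± 0.0709 (FDR 0.0210). Of 18 genes of mTORC1 and Larp1 control 3 rose (16.7%), led by Eif4g1 (0.19 ± 0.0499, FDR 0.0184), and 2 fell (11.1%), led by Eif4ebp2 (-0.28 ± 0.0872, FDR 0.0331), while Larp1 gave 0.065 ± 0.0416 (FDR 0.277). Of 13 p53 targets 2 rose (15.4%) and 3 fell (23.1%), with Plk2 (0.36 ± 0.0968, FDR 0.0193) and Ccng1 (-0.50 ± 0.104, FDR 0.00631) lowest in FDR.

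Mitochondrial ribosomal proteins and the respiratory chain were counted next. Of 77 mitochondrial ribosomal protein genes 7 fell (9.09%) and 5 rose (6.49%), with a median of -0.040, led by Mrpl35 (-0.50 ± 0.0885, FDR 0.00234) and Mrpl39 (0.23 ± 0.0494, FDR 0.00685). Of 81 nuclear oxidative phosphorylation genes 27 fell (33.3%) and 7 rose (8.64%), with a median of -0.11, led by Uqcr11 (-0.38 ± 0.0514, FDR 0.000607) and Atp5mpl (0.29 ± 0.0498, FDR 0.00207). Cytosolic subunits outside the rule were not called: Rpsa gave -0.52 ± 0.165 (FDR 0.0509), Rack1 -0.057 ± 0.0654 (FDR 0.564) and Fau -0.0098 ± 0.0639 (FDR 0.932). Within the first run of library numbers no gene of these groups passed an FDR of 0.05 by edgeR, while oxidative phosphorylation genes had a median of -0.11 there too, with 73 of 81 below 0, against the same WT libraries.

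Markers of microglia and astrocytes fell in the same libraries as the members. Of 6 microglia markers 5 fell in libraries 72 to 76 against WT and 0 rose (83.3% lower, beside 12.2% of all genes). Their summed level, led by Csf1r, was 168, 105 and 169 CPM in libraries 41 to 43, 106, 143, 125 and 130.3 CPM in WT, and 96.8, 92.7, 93.7, 79.8 and 103 CPM in 72 to 76. Of 6 astrocyte markers 4 fell (66.7%), and their sum, led by Slc1a2, was 8444, 5963 and 5746 CPM in libraries 41 to 43, 6975, 7732, 6757 and 7069 CPM in WT, and 4951, 5314, 5097, 4983 and 6364 CPM in 72 to 76. Of 4 markers of oligodendrocyte precursors Vcan rose (0.44 ± 0.111, FDR 0.0176) and Olig1 fell (-0.27 ± 0.0689, FDR 0.0154), and the oligodendrocyte genes Mbp (-0.37 ± 0.154, FDR 0.107) and Mog (0.15 ± 0.102, FDR 0.323) were not called. Of 6 neuron markers 1 rose, Syt1 (0.48 ± 0.139, FDR 0.0340), beside 11.4% of all genes, and 0 of 6 motor neuron markers were called. Of 4 endothelial markers 1 fell (25%). Of 4 red blood cell genes 1 rose (25%), with all 4 estimates above 0, and of 7 tested forebrain neuron genes 1 rose (14.3%). None of these markers was at 0 in every library, and their part in the members' result was not tested.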

How the data were processed

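The deposited tables hold counts of reads per gene, 1 table per library. The authors made them from paired-end reads of SMARTer libraries, with bcl2fastq and STAR on GRCm38. The study's methods name both poly(A) mRNA sequencing and a kit for total RNA, so the RNA selection is not settled here. The counting tool and its treatment of strand and of reads with several matches are not given in the sources used here. Counts of the 12 libraries were joined by Ensembl ID, and symbols were found for 49289 of 49548 genes in GENCODE. Genes above 1 CPM in at least 3 libraries (15942) were fitted with TMM scaling and the robust quasi-likelihood test of edgeR 4.0.16 in R 4.3.3, with Benjamini-Hochberg adjustment. DESeq2 1.42.0, limma 3.58.1, other filters and scalings, and leaving out each library were alternatives. The fit was tested on simulated data with 200 of 15942 genes changed by 1 on the log2 scale. It recovered 149 with all 12 libraries, 80 for libraries 41 to 43 against WT and 169 for 72 to 76 against WT. Between the runs within MFN2 mice it recovered 114. False calls in that order were 7, 5, 16 and 8. Total counts per library were 19359454 to 26738930, and within each genotype no pair of libraries agreed within sampling noise.

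Members and gene lists were chosen with earlier results of these data known. Named members were those of lowest FDR, of extreme fold change, of extreme level or without overlap, with paralog pairs, stalk genes and a few well-studied members. Rpl4, Rpl14, Rpl21, Rpl29, Rpl37a, Rps26, Mybbp1a and Eif6 were named after their values were seen where that rule did not take them. A few genes are not reported here.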

Additional observations from a re-analysis of the deposited data

Results flagged for a closer look

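In 10 of 90 groups of libraries, the highest or lowest library of a named member lay further from the rest than Dixon's 95% limit. Chance gives this in about 1 of 20 groups drawn from a single population. Named members were chosen partly for extreme values and the MFN2 libraries span both runs, so that rate is no measure here. Among the 8 MFN2 libraries, library 43 was highest for Rpl13a at 5.34 CPM (others 3.07 to 3.87), for Rpl31 at 76.4 CPM (others 43.2 to 58.8) and for Rps19 at 69.4 CPM (others 52.4 to 60.2). Library 42 was lowest for Rps13 at 25.2 CPM (others 31.0 to 34.0), for Rps19bp1 at 10.6 CPM (others 12.7 to 13.9) and for Rps4x at 74.5 CPM (others 83.6 to 91.3), and library 41 was highest for Rpl7 at 186 CPM (others 150.1 to 165). Among the 4 WT libraries, library 44 was lowest for Rps3a1 at 95.8 CPM (others 133 to 136) and highest for Rpl39 at 18.8 CPM (others 14.3 to 14.5), and library 45 was lowest for Rpl22l1 at 17.6 CPM (others 20.04 to 20.4).

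Between the runs of library numbers within MFN2 mice, 13 of 80 members differed at an FDR of 0.05 by edgeR, all lower in libraries 72 to 76, beside 1.13% of all genes lower and 0.947% higher.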

How the results depend on the processing

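No paired analysis was possible because the genotypes share no replicate numbers. In MFN2 against WT, the median log2 fold change of members moved from -0.12 to -0.030 when the run was fitted as a covariate and to -0.015 in the first run alone, where Rps18 turned to 0.015 and 0.031. Leaving out single libraries gave 0 to 1 called members, beside 0 to 0.119% of all genes. In libraries 72 to 76 against WT, scaling by library size only moved the median to -0.13 (all genes 0.069) and turned Rps19 to 0.014. Rplp2 turned to -0.0047 without a filter and to -0.000712 with filterByExpr, and ran from -0.013 to 0.025 with single libraries left out. Counts of called members there were 36 to 50 with single libraries left out (14.8 to 28.3% of all genes) and 41 to 45 otherwise (11 to 26.6%), beside 23.5% in the reported fit. Between the runs within MFN2 mice, scaling by library size only moved the median to -0.087 (all genes 0.055), and DESeq2 called 29 members in place of 13, with 11.1% of all genes in place of 2.08%. With single libraries left out, this count ran from 2 to 31 (0.163 to 14.8% of all genes) and the median from -0.23 to -0.14, and the cause was not tested. The run of library numbers and genotype cannot be told apart for libraries 72 to 76. The 5 members that did not pass the CPM filter were not tested.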

Other observations

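Rpsa, the cytosolic subunit gene that the symbol rule leaves out, has a pseudogene with an unusual pattern (both were chosen after their values were seen). Rpsa-ps10 (chr3:150072658-150073542) measured 78.2, 41.9 and 37.2 CPM in MFN2 libraries 41 to 43, 1.35, 2.26, 1.64 and 1.98 CPM in WT libraries, and 56.8, 32.6, 30.1, 38.4 and 3.41 CPM in MFN2 libraries 72 to 76. All 8 MFN2 libraries were above all 4 WT libraries, library 76 by little. Its log2 fold change was 4.87 ± 0.31 (SE; FDR 0.00893, edgeR) in libraries 41 to 43 against WT, where it was the one gene called, 4.17 ± 0.80 (FDR 0.0108) in libraries 72 to 76 and 4.47 ± 0.66 (FDR 0.126) over all MFN2 libraries. Rpsa itself measured 261, 360.3 and 251 CPM in libraries 41 to 43, 337, 415, 389 and 365 CPM in WT, and 189, 246, 232, 278 and 368 CPM in libraries 72 to 76. Library 76, lowest of the MFN2 libraries for the pseudogene, was highest of them for Rpsa.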
